A study of Homo sapiens with 8 samples.

Results

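The galectin genes LGALS1, LGALS3, LGALS8, LGALS9 and LGALS12 were followed across 4 transfections of Reh cells. They are 5 of the 19775 genes that the platform annotation names by a single symbol. Their probe sets were taken by that symbol and numbered 11 of the 54675 on the array. The family itself was chosen with earlier results of these data known, so shares of its members beside those of all probe sets are descriptions. LGALS8 had 6 probe sets, LGALS3 had 2, and LGALS1, LGALS9 and LGALS12 had 1 each. Of the 11, 8 reached a log2 intensity of 5 on at least 2 arrays and were tested: the probe set of LGALS1, all 6 of LGALS8 and that of LGALS9. They were part of a test over 24481 probe sets. These 8 stand for 3 genes, and the 6 of LGALS8 measure 1 gene on the same arrays. Counts over the member probe sets are therefore not counts of independent genes.

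Reh is an established human B-precursor leukemia line. The series text describes it as derived from acute lymphoblastic leukemia, while the sample labels enter non-Hodgkin lymphoma as the malignancy. The control cells received control shRNA. A further group received an shRNA against CBFA2T3, which encodes a transcriptional corepressor, and another received IKKβ(EE), a constitutively active IκB kinase β that drives the NF-κB pathway. The last group received the CBFA2T3 shRNA together with IKKβ(EE) and is called the combined transfection here. Knockdown and kinase expression were transient, and no label states a control shRNA for the group with IKKβ(EE) alone. Each group held 2 arrays, named biological replicates 1 and 2. The labels do not name separate cultures, so p-values measure the spread between these arrays, which may be technical in part.

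Galectins are lectins that bind β-galactoside sugars on glycoproteins and glycolipids. They lack a secretion signal, work inside the cell as well as outside it, and at the surface can cross-link receptors into lattices. Galectin-1, the product of LGALS1, is a ligand of the pre-B cell receptor in bone marrow and is made in large amounts by the malignant cells of classical Hodgkin lymphoma. Galectin-3, galectin-8 and galectin-9 bind, among others, damaged endosomes and lysosomes, integrins and immune checkpoint receptors, and galectin-12 is found mainly in fat cells.

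The arrays correlated between 0.937 and 0.991 over the tested probe sets. CBFA2T3 (208056_s_at) lay at 9.22 and 9.29 in control, 8.40 and 8.11 with the shRNA, 8.91 and 8.89 with IKKβ(EE), and 8.23 and 7.83 with both. IKBKB probe set 211027_s_at lay at 3.97 and 4.02 in control, at 10.8 and 10.4 with IKKβ(EE) and at 11.5 and 12.0 with both. The other IKBKB probe sets changed less and passed in no comparison. Means in control, with IKKβ(EE) and with both were 8.65, 8.98 and 8.74 on 209341_s_at, and 6.87, 7.13 and 7.25 on 209342_s_at. Of the 9 B-precursor markers on the array, 8 were above log2 5 on all 8 arrays. The exception was the surrogate light chain gene VPREB1, at 2.93 to 3.49. Of the T and NK cell markers 1 of 7 (CD247) was above it on all arrays, and of the monocyte markers 1 of 6 (ITGAM). Of the fibroblast and endothelial markers 3 of 7 were: COL1A1 (7.07 to 7.57), PDGFRB (5.40 to 6.77) and PECAM1 (5.45 to 5.78). Of the epithelial markers 0 of 4 were, and of the erythroid and platelet markers 1 of 3, HBB (5.04 to 5.57). Among the rest, CD14 (3.01 to 3.58), COL3A1 (2.63 to 2.98), CDH5 (2.56 to 3.02) and EPCAM (2.24 to 2.55) were near background throughout.

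LGALS1 was the galectin with the widest range. On the log2 intensity scale its probe set 201105_at lay at 5.98 and 6.57 in control replicates 1 and 2, at 7.94 and 9.66 with the CBFA2T3 shRNA, at 7.77 and 8.90 with IKKβ(EE), and at 8.91 and 10.79 with both. All 6 arrays outside the control group lay above both control arrays. Replicate 2 lay above replicate 1 in every group, by 0.58 in control, 1.72 with the shRNA, 1.13 with IKKβ(EE) and 1.88 with both. Ordered by mean, control (6.28 ± 0.41, SD, n = 2) was lowest, followed by IKKβ(EE) (8.33 ± 0.80), the shRNA (8.80 ± 1.22) and the combined transfection (9.85 ± 1.33). The LGALS1 arrays of the shRNA group overlapped with those of IKKβ(EE) and with those of the combined transfection. Both combined arrays lay above both IKKβ(EE) arrays, with the nearest pair at 8.91 and 8.90. The same order was found for 21.5% of tested probe sets.

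**Figure D1:**
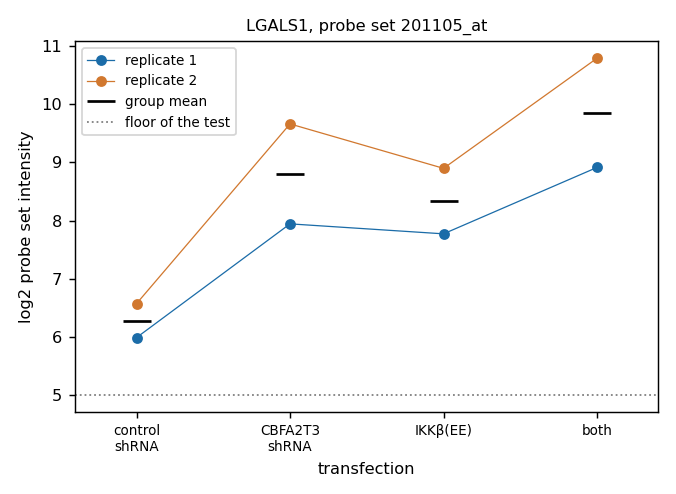
LGALS1 log2 intensity (probe set 201105_at) on each of the 8 arrays by transfection; points are arrays, lines join arrays of the same replicate number, bars are group means and the dotted line is the log2 floor of 5 used to choose probe sets for the test. The control arrays sit at 5.98 and 6.57 and the combined arrays at 8.91 and 10.79, with replicate 2 above replicate 1 in every group.

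LGALS1 rose in the combined transfection against control by 3.58 ± 0.74 log2 units (SE of the fit; 95% interval 1.85 to 5.30), or 11.9-fold, with an adjusted p of 0.0317 from limma. The arrays measure RNA of whole cultures, in which more or fewer cells of a type and more or less RNA per cell cannot be told apart. In this comparison 8.43% of tested probe sets passed an adjusted p of 0.05. With the shRNA alone the LGALS1 difference from control was 2.53 ± 0.74 (5.76-fold, adjusted p = 0.162), and with IKKβ(EE) alone 2.06 ± 0.74 (4.16-fold, adjusted p = 0.437), so neither passed. Arrays that did not overlap and were higher than control, as for LGALS1, were found for 25.9% of probe sets with the shRNA, 18.9% with IKKβ(EE) and 25.5% with both.

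Adding the replicate number to the fit as a block lowered the SE of each LGALS1 difference between groups to 0.28. The blocked adjusted p was 0.00691 for the shRNA, 0.0130 for IKKβ(EE) and 0.000491 for the combined transfection, where 7.72%, 3.39% and 23.7% of probe sets passed. Within replicate 1 the LGALS1 differences from control were 1.96, 1.79 and 2.93 in that order, and within replicate 2 they were 3.09, 2.33 and 4.23. The LGALS1 call for the combined transfection without the block was lost without control replicate 1 (adjusted p = 0.151), control replicate 2 (0.142) or combined replicate 2 (0.149). With the block that call held in 8 of 8 fits that each left out an array. The blocked LGALS1 call for the shRNA was lost without shRNA replicate 2 (adjusted p = 0.110), and that for IKKβ(EE) without control replicate 2 (0.0657) or either IKKβ(EE) replicate (0.0865 and 0.0740).

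The combined transfection exceeded the shRNA alone in LGALS1 by 1.05 ± 0.74 (2.07-fold, adjusted p = 0.541, or 0.0778 with the block) and IKKβ(EE) alone by 1.52 ± 0.74 (2.87-fold, adjusted p = 0.389, or 0.0362 with the block). In these comparisons 0.862% and 0.143% of probe sets passed, or 5.08% and 4.56% with the block. The blocked LGALS1 call against IKKβ(EE) alone held in 3 of 8 fits with an array left out, and was lost without either IKKβ(EE) replicate, either shRNA replicate or combined replicate 2 (adjusted p = 0.0630 to 0.268). The LGALS1 interaction, which is the combined effect minus the sum of the single effects, was -1.01 ± 1.05 (95% interval -3.45 to 1.43, adjusted p = 1.00, or 0.874 with the block), and 0.0123% of probe sets passed this test. Departures from a sum of the single effects anywhere within that interval were compatible with the fit without the block. With the block the SE of the LGALS1 interaction was 0.40.

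Effects averaged over 4 arrays against 4, a comparison added after the values were seen, gave LGALS1 a difference of 2.02 ± 0.52 for the shRNA (4.06-fold, adjusted p = 0.0587, or 0.00209 with the block). For IKKβ(EE) the averaged LGALS1 difference was 1.55 ± 0.52 (2.94-fold, adjusted p = 0.148, or 0.00419 with the block). Of all tested probe sets 7.6% passed for the averaged shRNA effect and 2.9% for that of IKKβ(EE), or 21.9% and 16.3% with the block.

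LGALS9 moved in the same direction as LGALS1 over a narrower range. Its probe set 203236_s_at lay at 5.80 and 5.58 in control, 6.41 and 6.47 with the shRNA, 6.20 and 6.29 with IKKβ(EE), and 6.50 and 6.85 with both. The control arrays were the lowest, below all 6 others, and the combined arrays the highest. Arrays above control without overlap were found for 25.9% of probe sets with the shRNA, 18.9% with IKKβ(EE) and 25.5% with both. LGALS9 rose in the combined transfection by 0.99 ± 0.15 (1.98-fold, adjusted p = 0.0147 from limma, or 0.00435 with the block). The blocked LGALS9 difference there was 0.79 to 1.18 with an array left out. With the shRNA the LGALS9 difference was 0.75 ± 0.15 (1.68-fold, adjusted p = 0.0776, or 0.0258 with the block). The blocked call was lost without control replicate 2 (adjusted p = 0.195) or either shRNA replicate (0.108 and 0.207). With IKKβ(EE) the LGALS9 difference was 0.55 ± 0.15 (1.46-fold, adjusted p = 0.281, or 0.0892 with the block).

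The combined transfection exceeded the shRNA by 0.24 ± 0.15 in LGALS9 (adjusted p = 0.496) and IKKβ(EE) by 0.44 ± 0.15 (adjusted p = 0.245). Averaged over 4 arrays against 4, LGALS9 rose with the shRNA by 0.59 ± 0.11 (1.51-fold, adjusted p = 0.0232, or 0.00855 with the block). The call without the block held in 1 of 8 fits with an array left out, that without combined replicate 1. With the block this difference was 0.50 to 0.69 with an array left out. The averaged IKKβ(EE) difference was 0.39 ± 0.11 (adjusted p = 0.0954, or 0.0374 with the block, which held in 2 of 8 fits with an array left out). The combined call for LGALS9 was lost without control replicate 1 (adjusted p = 0.0640), control replicate 2 (0.116) or combined replicate 2 (0.0691). LGALS9 has the near-identical copies LGALS9B and LGALS9C, whose windows around the gene start were 94.2% and 94.8% identical to that of LGALS9 in RefSeq. Probe sequences were not used here, and whether 203236_s_at also detects these copies was not tested, so its assignment to LGALS9 alone is uncertain.

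LGALS9 was the member that rose together with LGALS1 and had an entry in the RefSeq promoter table. Its 250 bases before the gene start (GRCh38.p14, chr17:27630938-27631187, plus strand) are shown with capitals marking the match to a broad NF-κB motif (GGG, any 5 bases, then CC) on the opposite strand.

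LGALS9: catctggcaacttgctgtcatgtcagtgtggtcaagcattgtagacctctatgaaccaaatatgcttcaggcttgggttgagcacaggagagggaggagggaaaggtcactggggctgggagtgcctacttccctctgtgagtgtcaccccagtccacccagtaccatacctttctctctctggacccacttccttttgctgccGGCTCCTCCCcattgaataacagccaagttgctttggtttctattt

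The LGALS9 match begins 46 bases before the start. It is a description of letters and not of a binding site. The broad motif occurs in 54.4% of 35116 windows of the same length. A narrower NF-κB motif (GGGA, any base, then TTTCC, in 0.527% of windows), the AP-1 motif TGANTCA (6.57%) and the interferon response motif (GAAA, any 2 bases, then GAAA, in 3.02%) were searched on both strands and had no match in the LGALS9 window. Of the 3 LGALS8 windows in the table, 1 held the broad motif, as did the LGALS3 window.

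LGALS8 fell, and only part of its probe sets passed. Probe set 208933_s_at lay at 9.53 and 10.21 in control and 9.46 and 9.88 with IKKβ(EE), against 8.69 and 8.80 with the shRNA and 8.73 and 8.58 with both. The 4 arrays with the shRNA therefore lay between 8.58 and 8.80, below all 4 arrays without it, as was the case for 8.05% of tested probe sets. Probe set 208935_s_at had the same split between arrays with and without the shRNA: 8.57 and 9.41 in control, 7.94 and 7.94 with the shRNA, 8.64 and 8.94 with IKKβ(EE), and 8.01 and 7.89 with both.

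In the combined transfection LGALS8 fell to 43.1% of control on 208933_s_at (log2 difference -1.21 ± 0.23, adjusted p = 0.0274 from limma), to 48.7% on 208935_s_at (-1.04 ± 0.25, 0.0484) and to 53.6% on 210731_s_at (-0.90 ± 0.19, 0.0328). With the block the adjusted p of these probe sets was 0.00563, 0.0148 and 0.0140 in that order. The blocked difference on 208933_s_at was -1.49 to -0.94 with an array left out. Probe set 208936_x_at differed by -0.52 ± 0.16 (adjusted p = 0.0910, or 0.0305 with the block). The remaining LGALS8 probe sets did not pass: 208934_s_at differed by -0.16 ± 0.17 (95% interval -0.56 to 0.25) and 210732_s_at by -0.12 ± 0.21 (-0.61 to 0.37). The count of called member probe sets was 5 of 8, 2 of them higher and 3 lower, beside 4.68% of all tested probe sets higher and 3.75% lower. All 3 lower ones measure the same gene, LGALS8.

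The LGALS8 call on 208933_s_at was lost without control replicate 2 (adjusted p = 0.135), combined replicate 2 (0.138) or either shRNA replicate (0.0508 each). On 208935_s_at it held only without control replicate 1, and on 210731_s_at only without combined replicate 1, among the 8 arrays left out in turn. With the block the calls on 208935_s_at and 210731_s_at held in 6 of 8 fits each, and that on 208936_x_at in 2 of 8 (adjusted p up to 0.217).

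With the shRNA alone LGALS8 differed from control by -1.12 ± 0.23 on 208933_s_at (45.9% of control, adjusted p = 0.0817, or 0.0177 with the block) and by -1.05 ± 0.25 on 208935_s_at (48.4%, adjusted p = 0.109, or 0.0321 with the block). The blocked call on 208933_s_at was lost without control replicate 2 (0.143) or either shRNA replicate (0.0703 and 0.198). On 208935_s_at it held in 3 of 8 fits with an array left out. The other LGALS8 probe sets differed by -0.61 to -0.14 and did not pass in either fit. Without the block 0 of 8 member probe sets passed in limma, where 0.69% of all tested probe sets did, and 7 had an unadjusted p under 0.05, beside 16.2% of all. Most of these 7 measure the same gene, LGALS8. With the block 4 of the 8 passed, beside 7.72% of all: LGALS1 and LGALS9 higher, and the named LGALS8 probe sets lower. That blocked count was 0 to 5 with an array left out.

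IKKβ(EE) alone left LGALS8 differences of -0.27 to 0.10 from control, and none of its 6 probe sets passed in either fit. Of the 8 member probe sets 0 passed in limma without the block, where 0.229% of all tested probe sets did. LGALS1 and LGALS9 had an unadjusted p under 0.05, as did 9.76% of all. With the block 1 member probe set passed, that of LGALS1, beside 3.39% of all tested probe sets. That blocked count was 0 to 1 with an array left out. Against IKKβ(EE) alone the combined transfection was lower on 208933_s_at by -1.01 ± 0.23 log2 units (adjusted p = 0.133, or 0.0351 with the block, which held in 3 of 8 fits with an array left out). Averaged over 4 arrays against 4, LGALS8 fell with the shRNA on 4 of 6 probe sets, to 47.7% on 208933_s_at (-1.07 ± 0.17, adjusted p = 0.0161, or 0.00344 with the block). These averaged LGALS8 changes were -0.94 on 208935_s_at, -0.62 on 210731_s_at and -0.48 on 208936_x_at. With the block and an array left out they were -1.21 to -0.93 on 208933_s_at and -1.14 to -0.75 on 208935_s_at. Leaving out an array kept the averaged LGALS8 call in 5 of 8 fits on 208933_s_at (lost without control, shRNA or IKKβ(EE) replicate 2), in 2 of 8 on 208935_s_at and on 210731_s_at, and in 0 of 8 on 208936_x_at. Of all tested probe sets 4.13% passed and were lower in this averaged comparison. With the block 210732_s_at passed as well (-0.37 ± 0.10, adjusted p = 0.0396 from limma), beside 10.7% of all that passed as lower. That blocked call held in 2 of 8 fits with an array left out.

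The LGALS8 probe sets disagreed in size. The difference between 208933_s_at and 208934_s_at on the same array was 0.58 and 0.99 in control and 0.41 and 0.69 with IKKβ(EE), but -0.04 and -0.37 with the shRNA and -0.17 and -0.38 with both. This shows unequal change between the probe sets and not which transcripts they detect. The pair was chosen after its values were seen, and the disagreement was not tested.

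**Figure D2:**
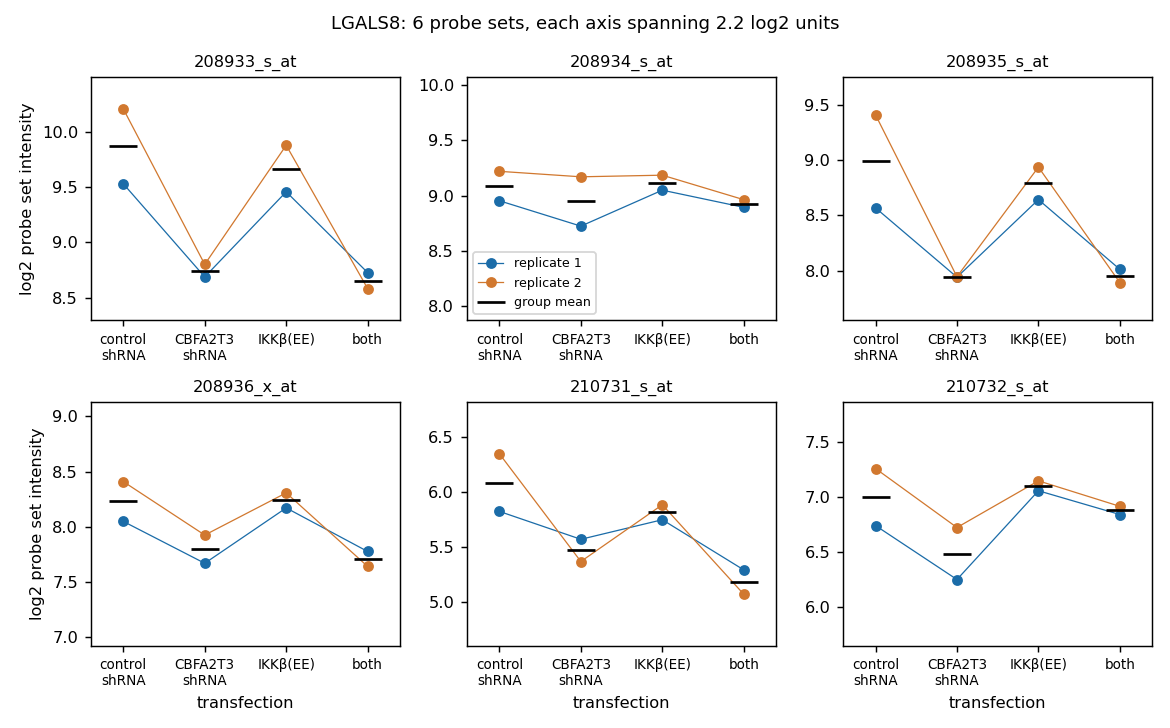
Log2 intensity of the 6 LGALS8 probe sets by transfection, each panel spanning 2.2 log2 units on its own axis; points are arrays, lines join replicate numbers and bars are group means. Probe sets 208933_s_at and 208935_s_at separate the 4 arrays with the CBFA2T3 shRNA from the 4 without it, whereas 208934_s_at overlaps between groups.

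LGALS3 and LGALS12 stayed near background. The LGALS3 probe sets lay at 2.46 to 2.95 (1557197_a_at) and 2.99 to 3.56 (208949_s_at), and LGALS12 (223828_s_at) at 3.09 to 3.84. None of these 3 probe sets was tested, and no fold is given.

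Of the other galectins on the array, LGALSL, which encodes a galectin-related protein that lacks sugar binding, was the single gene above the floor. LGALSL probe set 226188_at lay at 6.82 and 6.98 in control, 6.37 and 5.96 with the shRNA, 6.84 and 6.86 with IKKβ(EE), and 6.29 and 6.11 with both. The arrays with the shRNA were therefore below all others, as was the case for 8.05% of tested probe sets. LGALSL fell in the combined transfection by -0.70 ± 0.16 log2 units, to 61.5% of control (adjusted p = 0.0413). With the shRNA alone the LGALSL difference was -0.73 ± 0.16 (adjusted p = 0.0895, or 0.0293 with the block), and averaged over 4 arrays against 4 it was -0.69 ± 0.11 (adjusted p = 0.0180, held in 3 of 8 fits with an array left out). On the second probe set, 219998_at, LGALSL differed by -0.64 ± 0.26 in the combined transfection (adjusted p = 0.160, or 0.0193 with the block). Those blocked LGALSL calls held in 6 of 8 fits each with an array left out. The combined LGALSL call on 226188_at was lost without control replicate 1 (adjusted p = 0.123), control replicate 2 (0.199), either IKKβ(EE) replicate (0.0646 each) or combined replicate 2 (0.209).

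**Figure D3:**
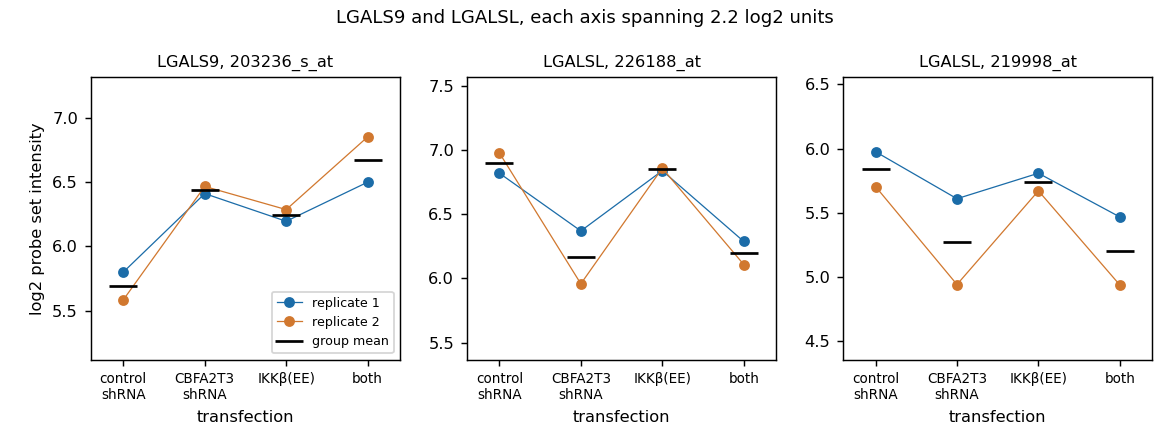
Log2 intensity of LGALS9 and of both LGALSL probe sets by transfection, each panel spanning 2.2 log2 units on its own axis; points are arrays, lines join replicate numbers and bars are group means. LGALS9 lies lowest in control (5.58 to 5.80), and LGALSL probe set 226188_at lies lowest in the 4 arrays with the CBFA2T3 shRNA (5.96 to 6.37).

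The secreted galectin-binding glycoprotein gene LGALS3BP lay between 8.62 and 9.11 on all arrays and passed in no comparison. The antisense transcript LGALS8-AS1 lay at 4.37 to 5.40, around the log2 5 floor, so no fold is given. It passed in no comparison without the block. With the block it was lower in the combined transfection (mean 4.49 against 5.01 in control, adjusted p = 0.0276 from limma).

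**Figure D4:**
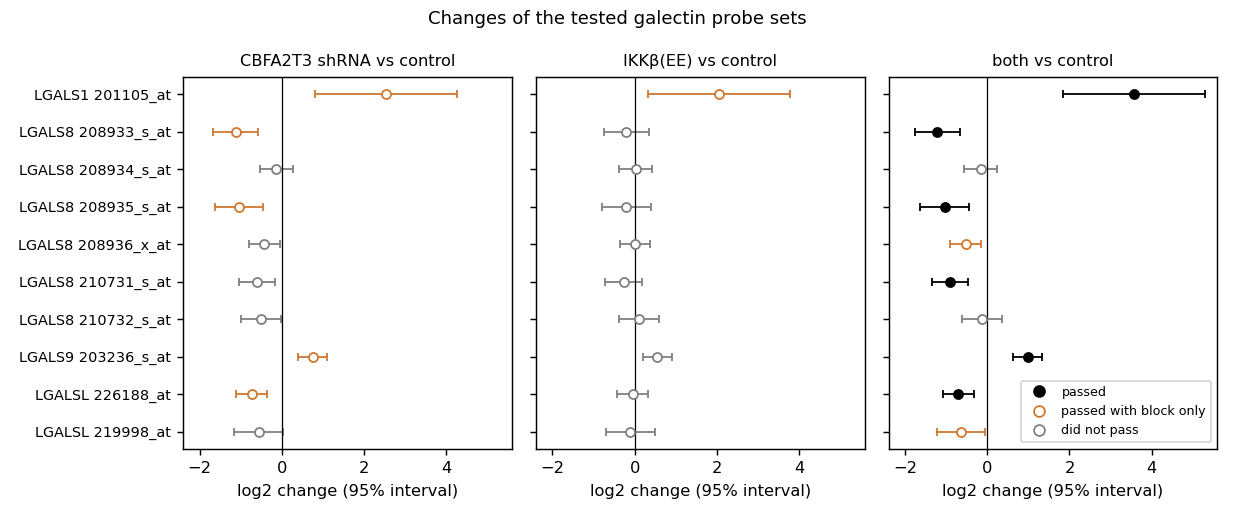
Log2 changes from control of the tested galectin probe sets, with 95% intervals of the fit without the block, for the CBFA2T3 shRNA, IKKβ(EE) and the combined transfection. Filled black points passed an adjusted p of 0.05, open orange points passed with the replicate block alone and grey points passed in neither fit. In the combined transfection LGALS1 and LGALS9 passed above 0 without the block, and 3 LGALS8 probe sets and LGALSL 226188_at passed below it. The other LGALS8 and LGALSL probe sets also lie below 0 but did not pass in that fit.

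The genes whose pattern over the 8 arrays was most like LGALS1 were named by the smallest root mean square difference after subtracting each gene's control mean, among 11448 genes. They were MTSS1 (0.196), STAP1 (0.383), ISG20 (0.482), PTGER4 (0.492) and GPR18 (0.545). MTSS1 encodes a membrane-bending actin regulator. Relative to control its means were 2.27 with the shRNA, 2.03 with IKKβ(EE) and 3.42 with both, beside 2.53, 2.06 and 3.58 for LGALS1. The genes most like LGALS8 (208933_s_at) were PKIB (0.102), KLF15 (0.181), PPP3CA (0.184), SNTG2-AS1 (0.209) and PRKX (0.212). PKIB, an inhibitor of protein kinase A, differed from control by -1.08 with the shRNA, -0.24 with IKKβ(EE) and -1.28 with both, beside -1.12, -0.20 and -1.21 for LGALS8. These distances are descriptions over 8 arrays that share replicate numbers, and the group means of LGALS9 spanned less than 1 log2 unit, so none was named for it.

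**Figure D5:**
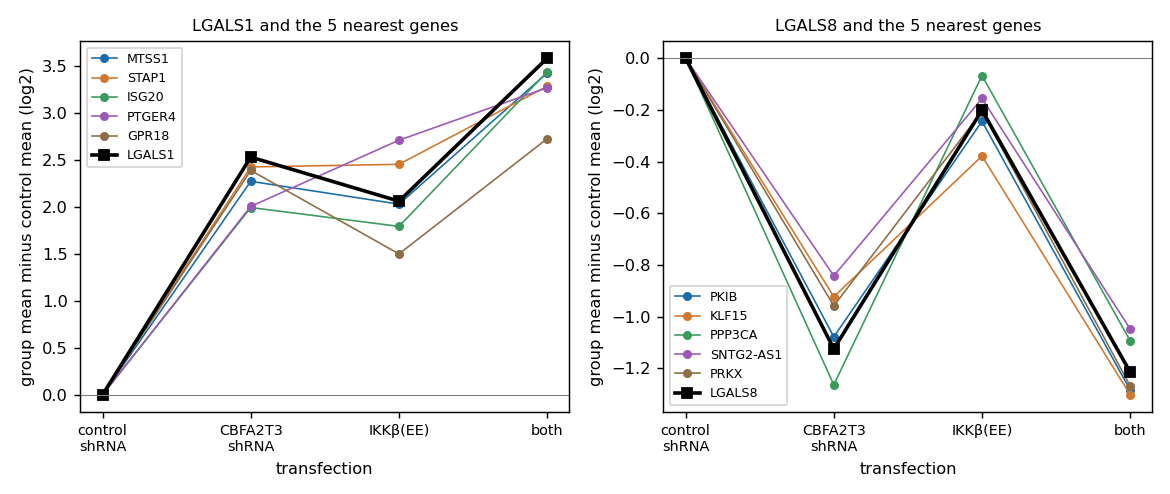
Group mean minus control mean (log2) by transfection for LGALS1 (left, black squares) and LGALS8 probe set 208933_s_at (right, black squares) with the 5 genes nearest to each in pattern (coloured points). The LGALS1 neighbours rise in all 3 groups other than control, and the LGALS8 neighbours lie lowest in the groups with the CBFA2T3 shRNA.

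The pre-B cell receptor, to which galectin-1 binds, had 7 tested genes of 8, and 0 passed in any comparison without the block; in the combined transfection 3 had an unadjusted p under 0.05 in limma, beside 27% of all tested probe sets. IGHM, the μ heavy chain, had the highest change in the combined transfection (0.66 ± 0.23, adjusted p = 0.117, or 0.00780 with the block) and CD79B the lowest (-0.37 ± 0.12, adjusted p = 0.108, or 0.0481 with the block). The blocked call held in 7 of 8 fits with an array left out for IGHM (lost without control replicate 2, 0.0748) and in 1 of 8 for CD79B. The list median there was -0.27, beside -0.02 over all 11449 genes.

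Among genes of cell surface and secreted galectin partners, 19 of 32 were tested. In the combined transfection 3 rose and 0 fell, beside 4.97% higher and 3.76% lower over all genes. They were TNFRSF9, a costimulatory receptor that galectin-9 binds, CD69, an early activation antigen that galectin-1 binds, and ITGA6, an integrin chain. TNFRSF9 rose to a mean of 8.31 from a control mean of 3.85 (adjusted p = 0.00159), and since the latter is under the log2 5 floor no fold is given. CD69 rose by 3.03 ± 0.56 (8.18-fold, 0.0248) and ITGA6 by 0.50 ± 0.12 (0.0434). Without the block ITGA6 lost its call in all 8 fits with an array left out, with adjusted p from 0.0606 to 0.200. CD69 lost its call without control replicate 1, control replicate 2 or combined replicate 2, with adjusted p up to 0.127. With the block 5 of these partners rose and 2 fell in the combined transfection, beside 11.8% higher and 12% lower over all tested probe sets.

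With the shRNA alone CEACAM1, an adhesion molecule that galectin-3 can bind, fell by 1.72 on the log2 scale (SE 0.16, adjusted p = 0.0252) and ITGA6 rose by 0.79 ± 0.12 (adjusted p = 0.0441). Those calls held in 5 of 8 and 2 of 8 fits with an array left out. In the combined transfection CEACAM1 was 1.09 ± 0.16 higher than with the shRNA alone (adjusted p = 0.0337), which held in 1 of 8 fits, and TNFRSF9 was higher, at 8.31 against 3.62, which is under the floor (adjusted p = 0.00192, held in 8 of 8). With IKKβ(EE) alone 0 of the 19 passed in limma without the block, beside 0.28% higher and 0.0175% lower over all genes, and 7 had an unadjusted p under 0.05, beside 9.76% of all probe sets. With the block 3 rose (CD69, ALCAM and TNFRSF9) and 1 fell (CD9), beside 2.96% higher and 0.437% lower over all tested probe sets. CD69 differed there by 3.07 ± 0.56 (adjusted p = 0.114, or 0.000155 with the block, which held in 8 of 8 fits).

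The enzymes that build or cap galectin ligands had 33 tested genes of 35. In the combined transfection 2 rose and 2 fell, beside 4.97% higher and 3.76% lower over all genes, a share near that background. The galactosyltransferase B4GALT5 rose by 1.16 ± 0.20 (adjusted p = 0.0197) and B3GNT5, which starts lacto-series chains, by 1.65 ± 0.26 (0.0164). B4GALT6, a lactosylceramide synthase, fell to 43.8% of control (-1.19 ± 0.19, 0.0176) and the sialyltransferase ST3GAL6 fell from a mean of 5.33 to 4.61, which is under the floor (0.0465). B4GALT6 also fell with the shRNA alone, to 35.1% of control (-1.51 ± 0.19, adjusted p = 0.0330), a call that held in 3 of 8 fits with an array left out (adjusted p up to 0.278). Leaving out an array kept the B3GNT5 call in 6 of 8 fits, the combined B4GALT5 and B4GALT6 calls in 5 of 8, and the ST3GAL6 call in 2 of 8. The median change of the list in the combined transfection was -0.03, beside -0.02 over all genes. With the block 5 of these enzymes rose and 5 fell there, beside 11.8% higher and 12% lower over all tested probe sets.

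The partners in the response to damaged vesicles had 14 tested genes. In the combined transfection 2 rose and 0 fell, beside 4.97% higher and 3.76% lower over all genes. They were the autophagy receptor SQSTM1, by 1.14 ± 0.20 (2.20-fold, adjusted p = 0.0216), and the lysosomal membrane protein LAMP2, by 0.50 ± 0.11 (adjusted p = 0.0371). The SQSTM1 call held in 5 of 8 fits with an array left out and the LAMP2 call in 1 of 8. With the block 5 genes of this list rose and 0 fell, beside 11.8% higher and 12% lower over all tested probe sets. Of the nuclear and cytoplasmic partners, 6 were tested and 0 passed in the comparisons with control without the block (3 had an unadjusted p under 0.05 with the shRNA and 3 with both, by limma, beside 16.2% and 27% of all probe sets). GEMIN4, a splicing cofactor that galectin-1 binds, differed by -0.70 ± 0.24 in the combined transfection (adjusted p = 0.112, or 0.00655 with the block, which held in 6 of 8 fits with an array left out).

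Some markers of other cell types moved with the groups. NKG7 lay at 4.64 in control, 5.56 with the shRNA, 4.64 with IKKβ(EE) and 5.53 with both, and PDGFRB at 5.76, 6.44, 5.67 and 6.61 in that order. The summed level of the 7 T and NK cell markers was 31.9 to 34.0 over the arrays, and that of the 7 fibroblast and endothelial markers 31.7 to 34.0. The sum of the 6 monocyte markers was 24.7 to 28.2, with means of 25.5 in control, 27.9 with the shRNA, 25.5 with IKKβ(EE) and 25.4 with both. Among them ITGAM was higher on all 6 arrays outside the control group than in control, and replicate 2 lay above replicate 1 in every group, as for LGALS1. The ITGAM means were 5.46 in control, 6.04 with the shRNA, 6.45 with IKKβ(EE) and 6.18 with both. Its highest mean was thus with IKKβ(EE), unlike LGALS1. Arrays above control without overlap were found for 25.9% of tested probe sets with the shRNA, 18.9% with IKKβ(EE) and 25.5% with both. LYZ, under the log2 5 floor throughout, was listed at 3.04 in control, 4.42 with the shRNA, 2.76 with IKKβ(EE) and 3.45 with both, and CD14 and CD163 were under the floor on all arrays. The part of these markers or their cell types in the galectin results was not tested.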

How the data were processed

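Total RNA of Reh cells was hybridized to 8 Affymetrix U133 Plus 2.0 arrays. The authors deposited log2 probe set intensities processed with RMA, per the submitters' processing notes. Neither the RMA version nor a genome build was given in those notes, and log base 2 was inferred from the range of the values. RMA sets the arrays to one distribution, so a shift of most transcripts would be removed, and the folds of dim genes are understated. GEO's platform annotation named 41097 probe sets with 1 gene symbol, 1801 with several and 11777 with none.

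Probe sets reaching log2 5 on at least 2 arrays were fitted with limma 3.58.1 (R 4.3.3), with 1 mean per group and a shared spread (4 residual degrees of freedom), in 6 comparisons. Tests were two-sided, adjusted by Benjamini-Hochberg over all 24481 probe sets, with a threshold of 0.05. Errors after ± are standard errors unless SD is written. With 2 arrays against 2, exact permutation gives no p below 0.333. The number of arrays limits the precision. Each listed gene was represented by its brightest probe set.

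Whether replicate numbers pair the arrays was checked on the values: the differences of replicate 2 minus 1 correlated at 0.34 to 0.58 in the 6 pairs of groups. The pairing comes from these correlations, not from the labels. The blocked value stands beside many, but not all, of the results where it changes a call. Members, lists and markers were chosen with earlier results of these data known. Named genes were all member probe sets, other galectins with a mean of at least log2 5, up to 2 called genes at either end of each list (else its extremes), and the 5 nearest patterns to a member whose group means span 1 log2 unit or more. Alternatives were the filter, moderation, scaling, the block, the compared groups alone and leaving out each array. The averaged effects were added after the data were seen. The fit was tested on simulated data.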

Additional observations from a re-analysis of the deposited data

How the results depend on the processing

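LGALS1 kept its direction in every comparison under every alternative run: no filter or a floor of log2 6, trend and robust moderation, array medians set equal, cyclic loess, the compared groups alone, the replicate block and each array left out. With the replicate block, which left the LGALS1 differences at 2.53 for the shRNA, 2.06 for IKKβ(EE) and 1.52 for the combined transfection against IKKβ(EE), these 3 passed that had not (adjusted p = 0.00691, 0.0130 and 0.0362). Leaving out each array moved LGALS1 from 1.67 to 3.39 for the shRNA against control, 1.49 to 2.62 for IKKβ(EE), 2.64 to 4.52 for the combined transfection, 0.11 to 1.99 for the combined transfection against the shRNA and 0.58 to 2.46 against IKKβ(EE), and the interaction from -1.95 to -0.067. With the block the ranges were 2.03 to 3.02, 1.56 to 2.55, 3.08 to 4.07, 0.68 to 1.42, 1.15 to 1.89 and -1.50 to -0.51. Among the blocked fits that newly passed, LGALS1 was 2.79 without shRNA replicate 1, and it was 1.05 for the combined transfection against the shRNA without either control array. With an array left out, the sign turned for LGALS8 on 208934_s_at with the shRNA (range -0.36 to 0.084, positive without shRNA replicate 1, and 0.0051 there with the block) and on 210732_s_at with both (range -0.38 to 0.14, positive without control replicate 2, and with the block 0.031 without it and 0.021 without combined replicate 2). The cause was not tested. The 5 called member probe sets of the combined transfection became 1 with the compared groups alone, where fewer arrays set the spread, 4 to 6 under the other settings with all arrays, and 0 to 4 with an array left out. The count was 0 without control replicate 2 or combined replicate 2. LGALS8 on 208935_s_at also lost its call without the filter (0.0530), with equal medians (0.0517) and with cyclic loess (0.0563). The file holds no detection calls, so values under log2 5 could not be told from background.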
